A study of Mus musculus with 10 samples.

Results

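The Schlafen genes measured here were Slfn1, Slfn2, Slfn3, Slfn4, Slfn5, Slfn8 and Slfn9, found by their symbols among the mouse Ensembl identifiers of a table of raw RNA-seq counts, as 7 of 52636 genes. All 7 passed the filter on low counts. The libraries came from 10 mouse melanoma tumours. The 6 tumours called Arf6Q67L carry BrafCA, floxed Cdkn2a (Cdkn2af/f) and Arf6Q67L, a GTP-locked and so constantly active mutant of the small GTPase Arf6. The 4 controls carry BrafCA and floxed Cdkn2a without Arf6Q67L, so that both alleles are shared by all 10 tumours. BrafCA is a Cre-dependent allele of the oncogenic kinase Braf, and Cdkn2a encodes a pair of tumour suppressors. The sources used here name neither the Cre driver, nor the promoter behind Arf6Q67L, nor the age of the mice.

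Schlafens are a family of mammalian proteins, expanded in rodents, that share an N-terminal domain with RNA-cleaving activity in several members, and many of them are induced by type I interferon. In the mouse they are grouped as short forms (Slfn1 and Slfn2), intermediate forms (Slfn3 and Slfn4) and long forms (Slfn5, Slfn8, Slfn9) that also carry a helicase-like C-terminal region. They were first described in thymocytes, where they were tied to growth arrest and quiescence. They are known mainly from T cells and myeloid cells, and tumours can hold both, while human SLFN5 has also been studied in interferon-treated melanoma cells.

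All 7 genes lie in 1 cluster on chromosome 11 of GRCm38, whose annotated members from Slfn5 at base 82951349 to Slfn14 at base 83286726 span 335378 bases with 26 annotated genes. On the plus strand of GRCm38 chromosome 11 lie Slfn5 (ENSMUSG00000054404) at 82951349 to 82964840, Slfn2 (ENSMUSG00000072620) at 83065112 to 83070678, Slfn1 (ENSMUSG00000078763) at 83116849 to 83122670, Slfn4 (ENSMUSG00000000204) at 83175186 to 83190216 and Slfn3 (ENSMUSG00000018986) at 83191330 to 83215154. On its minus strand lie Slfn9 (ENSMUSG00000069793) at 82978390 to 82991830 and Slfn8 (ENSMUSG00000035208) at 83002158 to 83020810. All 7 are annotated as protein-coding. Slfn8 and Slfn9 were 92.7% identical over their coding sequences of 2730 bases each, and Slfn3 and Slfn4 were 92.2% identical over 1778 aligned columns. Slfn5 was the most separate long form, with 64.6% identity to Slfn8 and 64.3% to Slfn9. Reads from near-identical stretches may be split between paralogues, since how such reads were counted is not stated in the labels. Of the 50-base words in its annotated transcripts, Slfn8 shared 14.6% with another Schlafen gene, Slfn3 12.3%, Slfn9 11.2%, Slfn4 10.8%, Slfn2 4.27%, Slfn1 0.606% and Slfn5 0%. With genes outside the family, Slfn5 shared 3.37% of its words, Slfn3 3.31%, Slfn9 0.235% and the other members 0%. The partner with most shared words was the pseudogene Slfn10-ps for both Slfn8 and Slfn9. The value of each member is uncertain to the extent that reads from its shared words were divided or dropped, which was not tested.

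RefSeq promoters (GRCm38.p6, 250 bases before to 50 after each start) were found for 7 of the 7 members and searched on both strands for 4 motifs. The interferon-stimulated response element was spelled as GAAA, any 2 bases and again GAAA, and the interferon-gamma activated site as TTCNNNGAA, which is its own reverse complement. The site of PU.1, a myeloid factor, was spelled GAGGAAGT and that of NF-kB as GGGA, any base and TTTCC. The first of these motifs was found in 3.44% of 32851 promoters (1131) and, among the 7 members, in Slfn5, Slfn8 and Slfn9. It was also found for 11 of the 18 genes with a promoter at hand in a list of 24 interferon-stimulated genes. These are counts of genes, while the 3.44% is a share of promoters, of which a gene can have several. The interferon-gamma site (8.3% of all promoters), the PU.1 site (3.2%) and the NF-kB site (0.411%) were found in none of the 7. A match is a description of letters and not of binding. The stretches before the starts of the 3 long forms are shown because they hold these matches, which stand in capitals. They are chr11:82951852-82951984 on the plus strand for Slfn5 (inside the bounds of the GENCODE gene, ended before an annotated exon), chr11:83020811-83021060 on the minus strand for Slfn8 and chr11:82991831-82992080 on the minus strand for Slfn9.
Slfn5: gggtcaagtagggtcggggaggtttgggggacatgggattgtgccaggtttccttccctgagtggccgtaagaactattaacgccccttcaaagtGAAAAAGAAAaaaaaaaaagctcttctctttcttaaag
Slfn8: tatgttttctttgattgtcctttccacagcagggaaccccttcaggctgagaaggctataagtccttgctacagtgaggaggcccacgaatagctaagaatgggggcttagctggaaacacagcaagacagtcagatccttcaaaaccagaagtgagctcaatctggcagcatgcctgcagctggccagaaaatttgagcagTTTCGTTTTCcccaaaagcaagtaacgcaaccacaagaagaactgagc
Slfn9: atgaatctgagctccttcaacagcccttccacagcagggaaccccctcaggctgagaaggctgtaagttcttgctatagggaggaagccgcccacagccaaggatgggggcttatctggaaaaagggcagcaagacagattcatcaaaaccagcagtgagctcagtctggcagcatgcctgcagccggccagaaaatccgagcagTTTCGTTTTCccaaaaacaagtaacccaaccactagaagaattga
The match began 155 bases before the start in Slfn5, where it runs into a stretch of A, and 48 and 45 bases before the start in Slfn8 and Slfn9, where both hold the same 10 letters as the reverse complement of the motif. A second RefSeq start of Slfn8 lies farther downstream, and the same match stands 136 bases before it.

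The 3 long forms were lower in every Arf6Q67L tumour than in any control, as were 1.28% of the genes tested. Values are CPM, the count scaled to library size with TMM factors, and in bulk tumours fewer cells of a type and less RNA per cell cannot be told apart. Slfn5, whose human counterpart is interferon-induced and acts in the nucleus as a regulator of transcription, had 26.4, 47.4, 28.9, 47.9, 27.9 and 17.9 CPM in Arf6Q67L tumours 1 to 6, against 58.0, 69.3, 65.5 and 94.8 CPM in controls 1 to 4. The highest Arf6Q67L tumour, tumour 4, stood below the lowest control, control 1. The mean of Slfn5 was 32.7 ± 12.2 CPM in Arf6Q67L tumours (SD, n = 6) and 71.9 ± 15.9 CPM in controls (SD, n = 4), 2.20-fold higher in controls. In edgeR's quasi-likelihood test the log2 fold change of Slfn5 was -1.13 (SE 0.27), with an unadjusted p of 0.00181 and an adjusted p of 0.235.

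Slfn8, known from T cells and macrophages, had a lowest, median and highest level of 5.41, 14.3 and 19.9 CPM in Arf6Q67L tumours, against 24.7, 35.0, 35.1 and 57.5 CPM in the 4 controls. The groups did not overlap. Its mean of 14.5 ± 5.30 CPM in Arf6Q67L tumours and 38.1 ± 13.9 CPM in controls gave a log2 fold change of -1.39 (SE 0.34; edgeR adjusted p = 0.239). Slfn9, its close paralogue, had a lowest, median and highest level of 46.1, 56.5 and 64.2 CPM in Arf6Q67L tumours, against 72.7, 73.0, 75.4 and 90.01 CPM in the controls. Again the groups did not overlap. The mean of Slfn9 was 55.5 ± 6.98 CPM in Arf6Q67L tumours and 77.8 ± 8.25 CPM in controls, or -0.49 on the log2 scale (SE 0.11; edgeR adjusted p = 0.233).

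Slfn8 and Slfn9, close in coding sequence, were also set side by side within each tumour. This is a description, and no p is given, since the comparison was chosen after its values were seen. The log2 CPM of Slfn8 minus that of Slfn9 in the same tumour averaged -2.03 ± 0.61 in Arf6Q67L tumours (SD, n = 6) and -1.09 ± 0.37 in controls (SD, n = 4). The groups overlapped, since the highest Arf6Q67L tumour had -1.30 and the lowest control -1.56. The other pair of over 90% identity, Slfn4 minus Slfn3, averaged 0.33 ± 1.65 in Arf6Q67L tumours and 1.97 ± 1.01 in controls.

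**Figure D1:**
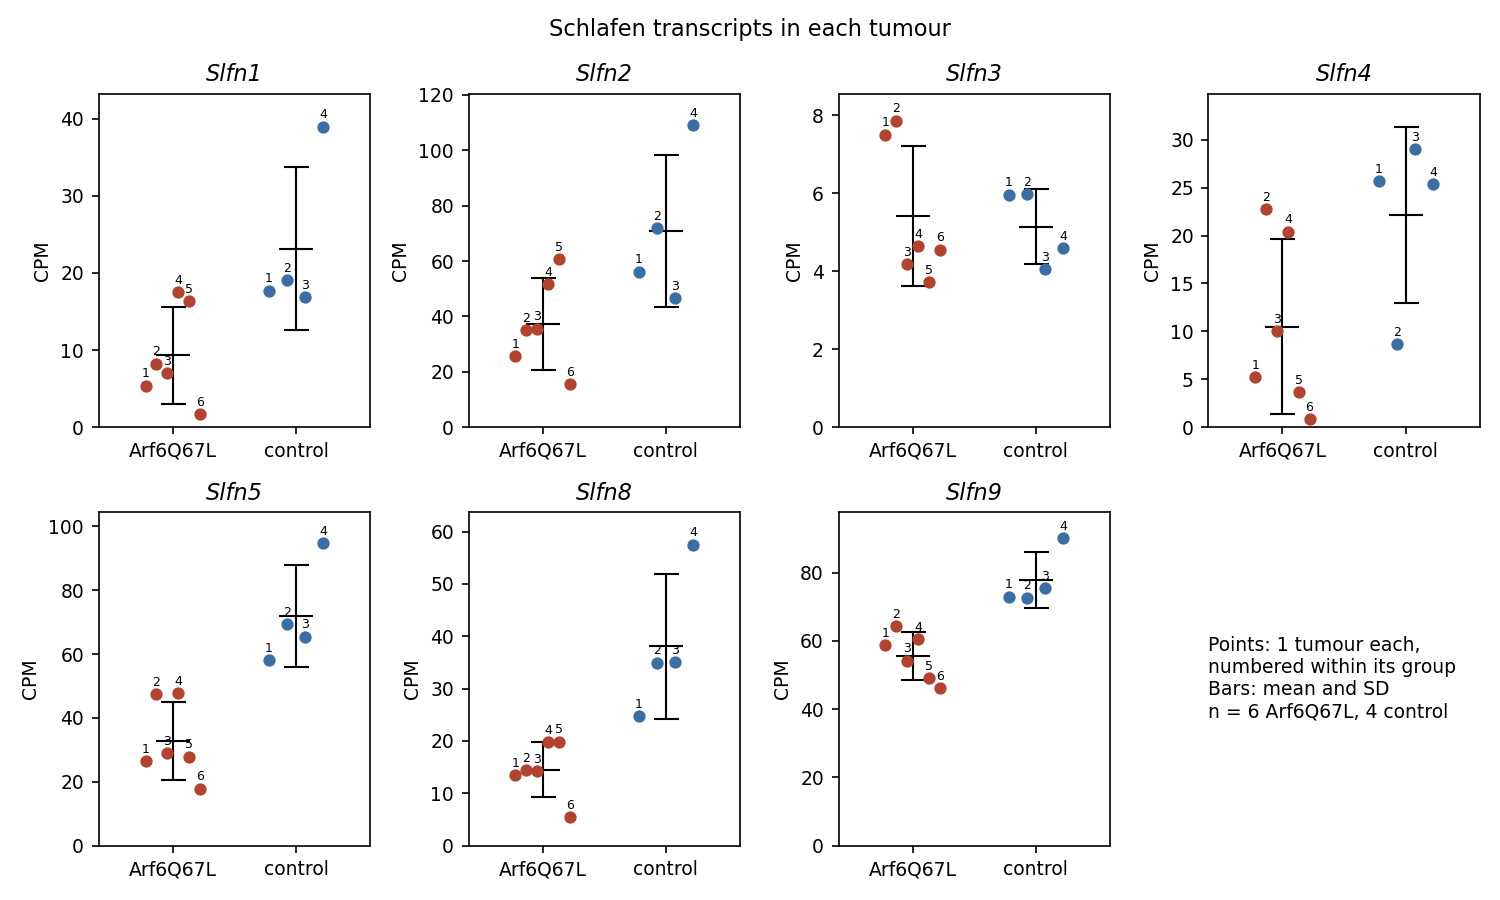
CPM of each Schlafen member (vertical axes, each from 0) in the 6 Arf6Q67L and 4 control tumours. Each point is 1 tumour numbered within its group, and the bars give mean and SD; Slfn5, Slfn8 and Slfn9 show no overlap between the groups, while Slfn3 overlaps fully.

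The short forms overlapped between groups. Slfn2, needed in mice for the quiescence and survival of T cells and monocytes and reported to shield tRNA from cleavage, had 25.5, 35.0, 35.6, 51.6, 60.7 and 15.4 CPM in Arf6Q67L tumours 1 to 6, against 56.2, 71.8, 46.5 and 109 CPM in controls 1 to 4. Arf6Q67L tumours 4 and 5 reached the control range, and the other 4 stayed below it. The log2 fold change was -0.93 (SE 0.36), with an unadjusted edgeR p of 0.0287 and an adjusted p of 0.381. Slfn1, which arrests growth when overexpressed in mouse fibroblasts and thymocytes, had 5.39, 8.22, 6.96, 17.5, 16.4 and 1.66 CPM in Arf6Q67L tumours 1 to 6, against 17.7, 19.1, 16.9 and 38.95 CPM in controls 1 to 4. The Arf6Q67L tumours 1, 2, 3, 5 and 6 stood below every control, and control 4 stood apart from the other 3. Slfn1 had a log2 fold change of -1.31 (SE 0.55), an unadjusted edgeR p of 0.0377 and an adjusted p of 0.403.

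The intermediate forms differed from each other, with the largest SE of the 7 in Slfn4 and a fold change near 0 in Slfn3. Slfn4, an interferon-induced gene of mouse myeloid cells, had 5.20, 22.8, 9.99, 20.4, 3.64 and 0.829 CPM in Arf6Q67L tumours 1 to 6, against 25.7, 8.65, 29 and 25.4 CPM in controls 1 to 4. Control 2 lay among the Arf6Q67L tumours, and Arf6Q67L tumours 2 and 4 lay near the other controls. The log2 fold change of -1.08 (SE 0.74) had an unadjusted edgeR p of 0.173 and an adjusted p of 0.605. Slfn3, known from regulatory T cells and, in rat and mouse, from enterocyte differentiation, had a lowest, median and highest level of 3.72, 4.59 and 7.86 CPM in Arf6Q67L tumours, against 4.05, 4.60, 5.96 and 5.97 CPM in controls. Its 2 highest tumours were both Arf6Q67L, and the lowest was too. The log2 fold change of Slfn3 was 0.07 (SE 0.26; edgeR adjusted p = 0.942), and it had the lowest count of the 7 members, 1820 over all libraries.

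Across the family, 6 of 7 members had a negative fold change, as did 50.3% of the 17286 genes tested. The median log2 fold change of the 7 was -1.08, beside -0.0018 over all genes tested. At an unadjusted edgeR p under 0.05, 5 of 7 were lower in Arf6Q67L tumours (7.05% of genes tested) and 0 of 7 were higher (4.65%). After adjustment over all genes edgeR called 0 of 7, as it called 0% of all genes, and limma-voom also called 0 of 7. DESeq2 called 3 of 7 lower, where it called 1.49% of 16545 genes lower: Slfn5 (adjusted p = 0.0127), Slfn8 (0.0119) and Slfn9 (0.0157). The same 3 were the members whose groups did not overlap, set against the 1.28% of genes given above. In the other direction DESeq2 called 0 of 7 (1.01% of genes), and 0 of 7 had every Arf6Q67L tumour above every control (1.15%). The two-sided exact permutation test gave each of those 3 p = 0.00952, the smallest it allows with 6 and 4 tumours. Groups without overlap always receive this smallest value, so it restates the lack of overlap and adds nothing to it. For the other members the unadjusted two-sided exact permutation test gave p = 0.01905 (Slfn1), 0.0476 (Slfn2), 0.0857 (Slfn4) and 0.895 (Slfn3). The count of 5 by unadjusted edgeR p was 3 without Arf6Q67L tumour 1 (background 5.33%) and 3 without control 4 (4.31%).

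**Figure D2:**
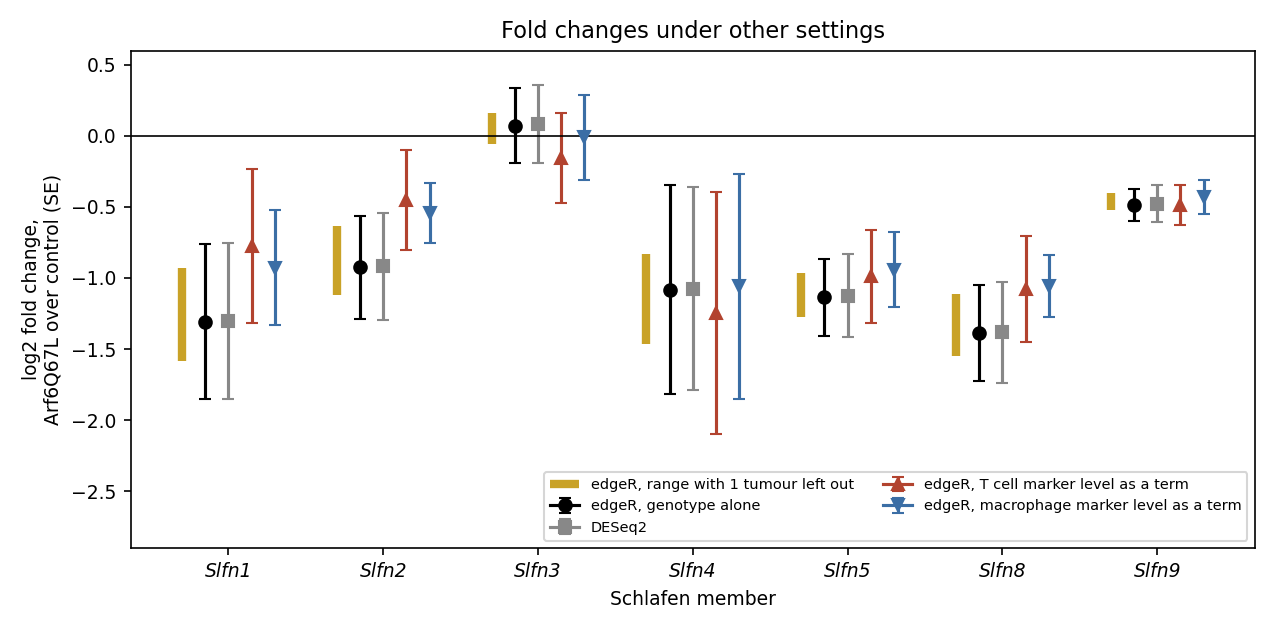
Log2 fold change of Arf6Q67L over control (vertical axis) for each Schlafen member under edgeR with genotype alone, DESeq2, and edgeR with the T cell or macrophage marker level as a term; error bars are SE. The yellow bar is the range of the edgeR value with 1 tumour left out, and Slfn3 is the member whose values fall on both sides of 0.

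Between members, levels were compared per length, as CPM per kilobase of annotated exon. Slfn2 was the most abundant, with 22.4 ± 9.96 CPM per kilobase in Arf6Q67L tumours and 42.6 ± 16.5 in controls (SD, n = 6 and 4). Slfn9 followed with 9.30 ± 1.17 in Arf6Q67L tumours and 13.0 ± 1.38 in controls. Slfn1, Slfn5 and Slfn8 came next, with means of 5.01, 5.17 and 3.55 CPM per kilobase in Arf6Q67L tumours and 12.4, 11.4 and 9.31 in controls. Slfn4 averaged 2.64 ± 2.31 in Arf6Q67L tumours and 5.59 ± 2.31 in controls, and Slfn3 was lowest at 1.59 ± 0.53 in Arf6Q67L tumours and 1.51 ± 0.29 in controls. Between neighbours in this order, compared within each tumour, Slfn2 was above Slfn9 in 10 of 10 tumours, Slfn9 above Slfn1 in 8, and Slfn5 above Slfn8 in 9. Slfn1 was above Slfn5 in 4 of 10 tumours, so that these neighbours had no steady order. Slfn8 was above Slfn4, and Slfn4 above Slfn3, in 7 of 10 tumours each. Taking the longest transcript or the coding length in place of the exon union exchanged Slfn1 and Slfn5.

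Summed over the 7 members, the level had a lowest, median and highest value of 23.6, 50.7 and 69.4 CPM per kilobase in Arf6Q67L tumours, against 77.1, 78.9, 89.0 and 138 in the 4 controls. Every Arf6Q67L tumour was below every control. Slfn2 made up 44.0 ± 6.90% of the sum in Arf6Q67L tumours and 43.7 ± 5.55% in controls. Slfn9 made up 20.8 ± 7.34% in Arf6Q67L tumours and 14.1 ± 2.42% in controls, and its largest share, 32.8%, was in Arf6Q67L tumour 6, the tumour with the smallest sum. Slfn8 made up 7.07 ± 0.99% in Arf6Q67L tumours and 9.64 ± 1.47% in controls. These shares are a description with no test.

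**Figure D3:**
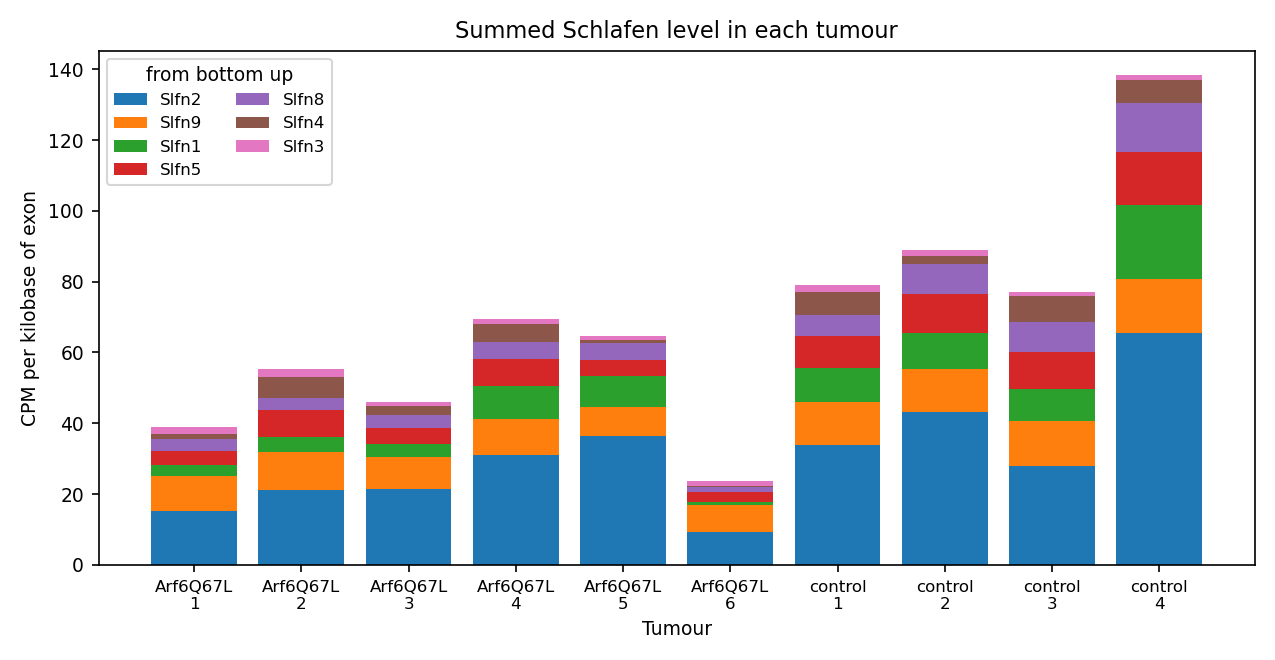
Summed level of the 7 Schlafen members in CPM per kilobase of exon (vertical axis, from 0) in each of the 6 Arf6Q67L tumours, left, and the 4 controls, right. The Arf6Q67L bars end between 23.6 and 69.4 and the control bars between 77.1 and 138, with Slfn2 as the lowest and largest block of every bar.

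Within the cluster, other tested genes were not past the threshold in edgeR either. The transcribed pseudogene Slfn10-ps averaged 6.70 ± 3.70 CPM in Arf6Q67L tumours and 9.18 ± 4.00 CPM in controls (-0.45 on the log2 scale, SE 0.48; edgeR adjusted p = 0.756). The other tested genes had -0.78 (1190001M18Rik, SE 0.49), -0.66 (Gm11425, SE 0.32), -0.53 (AI662270, SE 0.45) and 0.13 (Gm11427, SE 0.57). Slfn14, known from platelets and red cell precursors, had 1 count in Arf6Q67L tumour 6 and 0 in the other libraries. With 0 counts, a level of up to 3 counts remains possible, which is between 0.0734 and 0.105 CPM by library and covers counting error only. Slfnl1, a Schlafen-like gene on chromosome 4, reached at most 0.257 CPM in Arf6Q67L tumours and 0.317 CPM in controls. Outside the cluster, nearby protein-coding genes had log2 fold changes of 0.18 (Fndc8), -0.01 (Nle1, SE 0.10) and -0.17 (Unc45b) on the Slfn5 side, and 0.13 (Ap2b1, SE 0.09) and 0.50 (Rasl10b) on the other side. Antisense genes held few counts: Slfn5os had 14 over all libraries, against 16003 for Slfn5, and Gm20234 had 96, against 16913 for Slfn2.

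**Figure D4:**
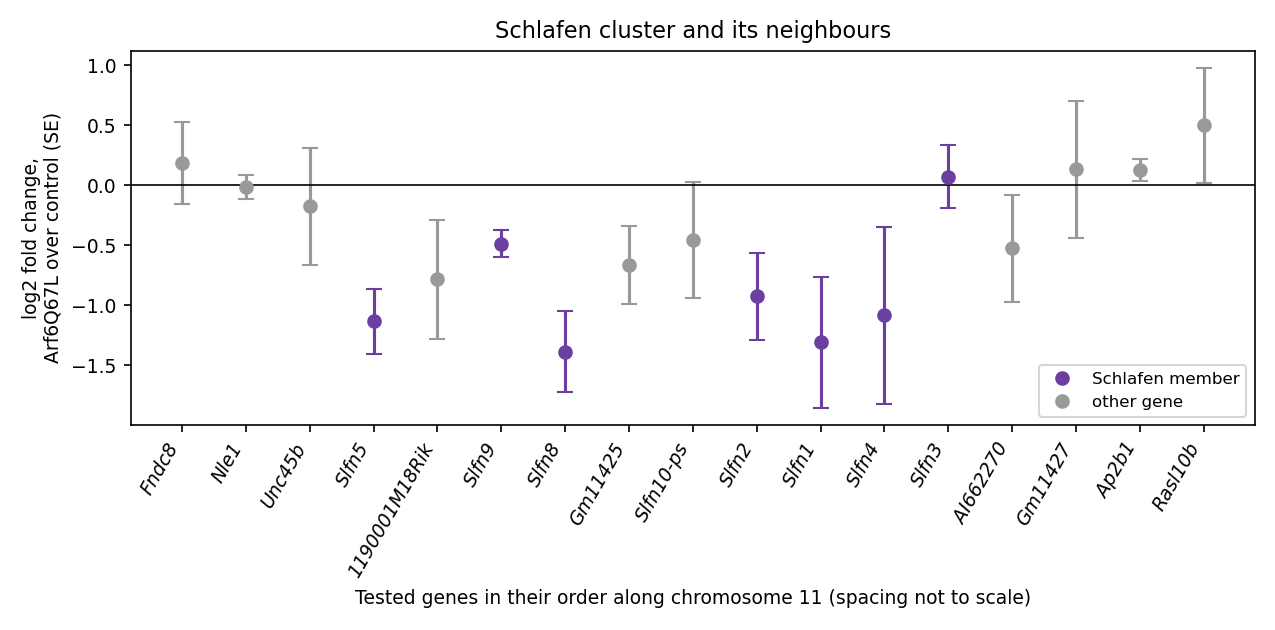
Log2 fold change of Arf6Q67L over control with SE (vertical axis) for the tested genes of the Schlafen cluster and nearby protein-coding genes on each side, in their order along chromosome 11. Schlafen members are purple, and Nle1, on the Slfn5 side of the cluster, lies near 0.

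Members differed in which genes followed them across the 10 tumours. Pearson's r of log2 CPM is given as a description over tumours that include both genotypes, so a shared difference between genotypes enters it. Slfn5 was most like Bst2 (r = 0.969), which tethers budding virus, Ddx60 (0.967), a helicase of antiviral sensing, and Oas1a (0.961), of the 2-5A synthetase family. Slfn8 was most like Ifi207 (0.970), Oas1a (0.960) and B2m (0.960), the light chain of class I molecules. Slfn9 was most like Tlr6 (0.955), a receptor for bacterial lipopeptides, Oas1g (0.929) and Ddx60 (0.926). The short forms had other neighbours: Slfn2 was most like Sirpb1a (0.992) and Sirpb1b (0.976), and Slfn1 like Fpr1 (0.970), Sirpb1b (0.962) and Slc12a7 (0.962). Sirpb1a and Sirpb1b are myeloid surface receptors, and Fpr1 is a receptor for formylated peptides. Slfn4 was most like Ifi206 (0.932), Uvrag (0.930) and Ifi213 (0.926), and Slfn3 like Sp2 (0.938), Hadha (0.928) and Cpt1a (0.921), of which Hadha and Cpt1a act in fatty acid oxidation. Among members, r was highest for Slfn1 with Slfn2 (0.975), Slfn5 with Slfn9 (0.956) and Slfn1 with Slfn8 (0.952). The long form Slfn8 also had 0.933 with Slfn2, beside 0.916 with Slfn5 and 0.871 with Slfn9. Slfn3 had r between -0.20 and 0.20 with each of the others.

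The interferon-stimulated list was lower in Arf6Q67L tumours. All 24 of its genes had an unadjusted edgeR p under 0.05 in that direction (7.05% of genes tested). After adjustment 0 passed in edgeR, as did 0% of all genes, and 21 were lower in DESeq2 (1.49%). The list was chosen with earlier results of these data known. The median log2 fold change of the list was -1.71. Mx1, an antiviral GTPase, averaged 13.5 ± 4.56 CPM in Arf6Q67L tumours and 57.5 ± 15.7 CPM in controls, or -2.09 on the log2 scale (SE 0.27). The summed level of the list lay between 267 and 780 CPM in Arf6Q67L tumours and between 1104 and 2065 CPM in controls. Of 12 genes of interferon receptors and signalling, 4 were lower at an unadjusted edgeR p under 0.05 (7.05% of genes tested). Among them were Stat2 (-1.26, SE 0.21), Irf9 (-0.70, SE 0.20) and Irf1 (-1.60, SE 0.49). The 12 genes had a median of -0.29. The receptor subunit Ifnar1 had 0.01 (SE 0.18), and its partner Ifnar2 had -0.32 (SE 0.16).

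The lists named after Schlafen functions were read against the same shares, 7.05% of genes lower and 4.65% higher at an unadjusted edgeR p under 0.05. Of 12 genes of T cell quiescence, 2 were lower at an unadjusted edgeR p under 0.05, Klf2 (-1.05, SE 0.37) and Klf4 (-0.46, SE 0.17). By DESeq2's adjusted p 0 of the 12 were called in either direction. The median was -0.34, and 3 of the 12 had a positive fold change, among them S1pr1 (0.99, SE 0.44). Of 8 genes of tRNA cleavage and repair, 0 passed in either direction by edgeR or DESeq2, with a median of 0.11. Of 10 genes of replication stress, a process in which human SLFN11 acts, 0 passed in either direction by edgeR or DESeq2, with a median of -0.02.

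Most markers of cells that can carry Schlafen transcripts had negative fold changes. Their part in the results was not tested beyond the fits with a marker term. The calls below are at an unadjusted edgeR p under 0.05, which 7.05% of all genes passed as lower and 4.65% as higher. All 15 T cell markers had a negative fold change, with a median of -2.02 on the log2 scale, and 6 were called lower in Arf6Q67L tumours. Their summed level lay between 32.8 and 156 CPM in Arf6Q67L tumours and between 70.0 and 517 CPM in controls. Controls 1 and 3, at 70.0 and 82.9 CPM, lay inside the range of the Arf6Q67L tumours. Of 12 macrophage markers, with a median of -0.82, 7 were lower and 2, Mertk and Cd163, were higher. Their sums were 1180 to 2352 CPM in Arf6Q67L tumours and 1765 to 4663 CPM in controls. Here too controls 1 and 3, at 1765 and 1782 CPM, lay inside the range of the Arf6Q67L tumours. All 8 tested markers of monocytes and neutrophils had a negative fold change, with a median of -1.21, and 2 were called lower (Csf3r and Ccr2), with sums of 43.0 to 179 CPM in Arf6Q67L tumours and 155 to 305 CPM in controls. The granule genes Mpo and Elane and the neutrophil marker Ly6g stayed below the filter. Of 11 markers of NK and cytotoxic cells, 3 were lower (median -0.79), and of 8 dendritic cell markers, 3 were lower (median -0.52). After adjustment edgeR called 0 markers of these lists, as it called 0% of all genes. DESeq2 called 1 monocyte or neutrophil marker lower (1.49% of genes) and 1 macrophage marker higher (1.01%). It called 0 markers of the T cell, NK and dendritic cell lists in either direction.

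With the mean log2 CPM of the T cell list as a term in edgeR, Slfn2 had a log2 fold change of -0.45 (SE 0.35; adjusted p = 0.953) and Slfn1 of -0.78 (SE 0.54; adjusted p = 0.948). In that fit Slfn5 had -0.99 (SE 0.33; adjusted p = 0.731), Slfn8 had -1.08, Slfn9 -0.48 (SE 0.14) and Slfn4 -1.25 (SE 0.85), the last farther from 0 than without the term. With the macrophage list as a term, the values were -0.54 for Slfn2, -0.93 for Slfn1, -0.94 for Slfn5, -1.05 for Slfn8, -0.43 for Slfn9 and -1.06 for Slfn4. The marker levels are themselves measured in the same tumours and may differ with genotype, which was not tested for these means. The T cell mean lay between -0.16 and 3.06 log2 CPM in Arf6Q67L tumours and between 1.25 and 4.75 in controls. The macrophage mean lay between 6.00 and 7.05 in Arf6Q67L tumours and between 6.53 and 7.77 in controls, so both overlapped.

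**Figure D5:**
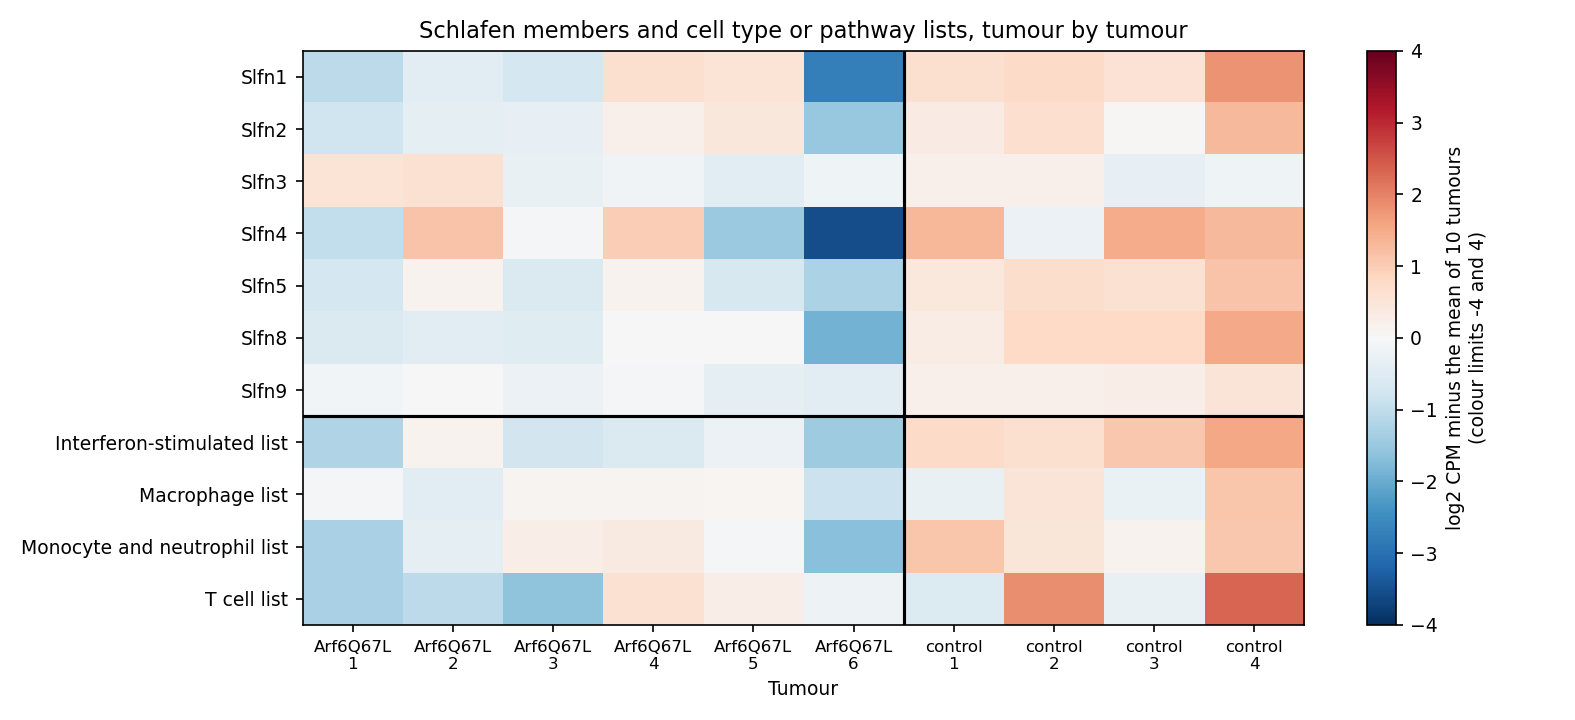
Log2 CPM minus its mean over the 10 tumours (colour, from -4 to 4) of the 7 Schlafen members and 4 gene lists, by tumour, with the 6 Arf6Q67L tumours left of the line and the 4 controls right of it. Control 4 is among the reddest and Arf6Q67L tumour 6 among the bluest columns for most members.

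A pair of tumours held most of the extreme values. Control 4 was the highest tumour for 5 of 7 members, and Arf6Q67L tumour 6 was the lowest for 6 of 7. In edgeR fits without both, an alternative chosen after seeing the data, the log2 fold changes were -0.84 for Slfn5, -0.94 for Slfn8, -0.35 for Slfn9, -0.71 for Slfn1, -0.47 for Slfn2 and -0.76 for Slfn4, so that each of these 6 was smaller in size than with all tumours and kept its sign.

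Library totals lay between 31372896 and 37918116 counts in Arf6Q67L tumours and between 28635414 and 40869091 in controls. Arf6 itself averaged 104 ± 21.3 CPM in Arf6Q67L tumours and 93.0 ± 17.4 CPM in controls (log2 fold change 0.17, SE 0.18; edgeR adjusted p = 0.758). The sources used here do not say whether reads of the engineered transcript are counted under Arf6, so its level does not check the labels. Of the melanocyte markers, Tyr and Dct had 0 counts in every library, and Mitf averaged 17.0 ± 5.57 CPM in Arf6Q67L tumours and 16.6 ± 4.18 CPM in controls. Sex read from Xist and Y-linked genes was female in 3 of 6 Arf6Q67L tumours and 1 of 4 controls. Library numbers run without overlap, with the Arf6Q67L tumours first, so an effect of that order and one of genotype cannot be told apart. On the first principal component, which held 25.8% of the variance, control 4 stood farthest out.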

How the data were processed

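Polyadenylated RNA of 10 mouse tumours was sequenced. The authors deposited 1 table of raw counts per gene, 1 column per library. The submitters' processing notes list the build GRCm38 and the tools DESeq2 1.18.0, featureCounts 1.5.1 and STAR 2.5.2b but not what each did. Per the labels' protocols, RNA came from a Qiagen RNeasy kit and libraries from a TruSeq kit that keeps strand. The strand setting of the counting is not given in the sources used here.

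The 7 members and the gene lists were chosen with earlier results of these data known. The genotype label gave the groups. Tumours were numbered in accession order. Nothing in the labels says that each tumour came from its own animal, so p-values measure the spread between these tumours. Counts of any pair of tumours of 1 group differed beyond sampling noise, with a chi-square of 77.9 or more per gene. Symbols and coordinates came from GENCODE M21 (52403 of 52636 identifiers matched).

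Genes were tested in R 4.3.3 with the quasi-likelihood test of edgeR 4.0.16 (minimum count 10 in filterByExpr, TMM, glmQLFit with the robust option, glmQLFTest, genotype as the term), with Benjamini-Hochberg adjustment over 17286 genes and a threshold of 0.05. SE is the fold change over the root of F. Log2 CPM used a prior count of 2. DESeq2 1.42.0 and limma 3.58.1 (voom with quality weights) were alternatives, beside other filters, DESeq2 size factors, sex or marker terms and each tumour left out. The steps were tested on simulated data. Genes named are the 7 members, the 3 genes with the highest Pearson r to each (leaving out predicted genes and pseudogenes), up to 4 genes of lowest p per list, other Schlafen genes, cluster neighbours, Arf6, Braf, Cdkn2a and sex-linked genes. Some genes that this rule names are not reported here. Other genes named, such as Ifnar1, Ifnar2 and the low-count markers, were chosen after their values were seen, as were the paralogue comparisons.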

Additional observations from a re-analysis of the deposited data

Results flagged for a closer look

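In 52 tested groups of values, 6 had 1 tumour far from the others, where chance gives about 1 in 20. The groups come from the same 10 tumours and are not independent, and CPM was not put on a log scale. That rate is therefore only a rough guide. Each of the 6 lay on the high side of its group. Slfn1 had 38.95 CPM in control 4, and the next control had 19.1 CPM. Slfn9 had 90.01 CPM in control 4, and the next had 75.4 CPM. The summed tRNA cleavage list had 722.7 CPM in Arf6Q67L tumour 3, and the next Arf6Q67L tumour had 650 CPM. The summed B and plasma cell list had 1184 CPM in Arf6Q67L tumour 4, with the next at 37.8 CPM. The summed mast cell list had 102.7 CPM in control 2, with the next at 30.8 CPM. The summed skeletal muscle list had 987.2 CPM in control 4, with the next at 37.3 CPM.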

How the results depend on the processing

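No paired analysis was possible because the labels give no replicate numbers that the groups share. The number of genes past the threshold was 0 in edgeR, 413 in DESeq2 (246 lower, 167 higher) and 2 in limma-voom (1 in each direction), and with 1 tumour left out it was between 0 and 1. The number of Schlafen members past it was 0 in edgeR and 3 in DESeq2 (Slfn5, Slfn8 and Slfn9, with log2 fold changes of -1.13, -1.38 and -0.48), and in edgeR fits with 1 tumour left out it was 0, while DESeq2 was not rerun with tumours left out. The cause of this difference between tools was not tested. The number of members with an unadjusted p under 0.05 was 5, all lower in Arf6Q67L tumours (7.05% of all genes). It was between 3 and 5 with 1 tumour left out, 5 with the macrophage level as a term (3.96% of genes), 3 with sex as a term (5.93%), 3 with the T cell level as a term (3.32%) and 3 without Arf6Q67L tumour 6 and control 4 (3.67%), the last chosen after seeing the data. Slfn3, at 0.07 with all tumours, was -0.04 without Arf6Q67L tumour 1, -0.0545 without Arf6Q67L tumour 2, -0.03 without control 3, -0.16 with the T cell term and -0.0092 with the macrophage term, each within 1 SE of 0, and reached 0.1586 without Arf6Q67L tumour 5. The other 6 members were negative under all alternatives run. With 1 tumour left out, the log2 fold change ranged from -1.58 to -0.93 for Slfn1, -1.12 to -0.63 for Slfn2, -1.47 to -0.83 for Slfn4, -1.28 to -0.97 for Slfn5, -1.55 to -1.11 for Slfn8 and -0.52 to -0.40 for Slfn9. Without length, the order of members by CPM moved at 6 of 7 places. Depth limits Slfn14 and Slfnl1 alone among the Schlafen genes.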

Other observations

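Other cell type markers stood beside the Schlafen values in these tumours. The mast cell list held 9 markers, of which 7 had an unadjusted edgeR p under 0.05 with higher values in Arf6Q67L tumours (4.65% of all genes) and 5 passed DESeq2's adjustment (1.01%), with a median log2 fold change of 3.03. Their summed level lay between 63.4 and 1065 CPM in Arf6Q67L tumours and between 20.9 and 103 CPM in controls. Of 8 endothelial markers, 5 were lower in Arf6Q67L tumours at an unadjusted edgeR p under 0.05 (7.05% of all genes) and 2 by DESeq2's adjusted p (1.49%), with a median of -0.74, and Emcn had -1.20 (SE 0.30). Of 7 fibroblast markers and 7 skeletal muscle markers, 0 passed in either direction by edgeR or DESeq2, with medians of 0.41 and 0.83. Of the B and plasma cell list 3 of 8 genes were tested and 0 passed, of the melanocyte list 2 of 7 and 0, and of the keratinocyte list 1 of 6 and 0.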
